A study of Mus musculus with 6 samples.

Results

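The genes described here are 10 enzymes and transporters of antioxidant defence that are known targets of the transcription factor NRF2, taken by symbol from a table of 23836 genes. They are Gclc, Gclm and Slc7a11 (glutathione supply), Txnrd1 and Srxn1 (thioredoxin and peroxiredoxin recycling), Nqo1, Akr1b8 and Gsta3 (detoxification), Me1 (NADPH supply) and Hmox1 (haem breakdown). All 10 had a mean of at least 1 RPKM (reads scaled to the length of the gene and to the size of the library), the filter that left 10558 genes. The set was chosen by symbol with the KO to WT differences in RPKM of these same 6 libraries in view, so those differences are descriptions and support nothing, and with 1 library for each genotype and time no p-value can be given.

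Bone marrow of C57BL/6 mice aged 6 weeks was cultured in the cytokines IL-4 (1 ng/ml) and GM-CSF (10 ng/ml) to give dendritic cells (BMDC), which present antigen to T cells. CD11c+ cells were picked with magnetic beads and matured for 24 h with 100 ng/ml lipopolysaccharide (LPS), a bacterial cell wall component, and are called maDC. The WT culture carried functional Mettl3, the catalytic subunit of the m6A (N6-methyladenosine) writer of mRNA, and the KO culture is labelled Mettl3-/-; per the methods of the study, KO mice lacked several Mettl3 exons through a floxed allele and Cre driven by the CD11c promoter, and WT mice were their littermates. Each culture was divided into 3 parts that received actinomycin D, which stops transcription, for 0, 3 or 6 h, and poly(A) RNA with added ERCC spike-in transcripts was sequenced from the resulting 6 libraries. Genotype and culture therefore cannot be told apart, and the 3 times of a genotype share a culture. The sample titles carry the mark D3 for WT and D2 for KO, whose meaning is not given. The methods of the study speak of pairs of littermates, and the number of mice behind each culture is not stated.

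NRF2, encoded by Nfe2l2, is held at a low level by KEAP1, which hands it to a ubiquitin ligase built on CUL3. Oxidants and electrophiles modify KEAP1, after which NRF2 accumulates, pairs with small MAF proteins and binds the antioxidant response element upstream of its targets, where BACH1 competes as a repressor. In myeloid cells the pathway is known for limiting oxidant damage during inflammatory activation.

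The core of the antioxidant response element, searched here as TGACNNNGC on both strands, is shown because it is the sequence through which NRF2 is known to act on these genes. The RefSeq promoter sequences (GRCm38.p6) run from 250 bases before to 50 after the start of each entry. Of the 10 genes 8 had an entry. The core was in 5 of these 8 (62.5%), against 17.4% of the 8100 tested genes with an entry. By promoter, the core was in 5 of 11 (45.5%), in 14.8% of the 10311 promoters of tested genes and in 12.4% of all 32851 promoters of that length. The 5 windows are written 5′ to 3′ on the named strand, with the core in capitals.
Gsta3, chr1:21240454-21240482, plus strand: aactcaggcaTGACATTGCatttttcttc
Srxn1, chr2:152105542-152105570, minus strand: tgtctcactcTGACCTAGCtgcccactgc
Gclm, chr3:122245413-122245441, minus strand: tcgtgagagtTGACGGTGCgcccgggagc
Me1, chr9:86695902-86695930, minus strand: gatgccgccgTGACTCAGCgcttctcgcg
Txnrd1, chr10:82859104-82859132, minus strand: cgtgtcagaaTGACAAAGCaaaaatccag

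Distances were taken from the start of the promoter entry holding the core, which can differ from the gene coordinates given below. The core was centred 117 bases before that start in Gsta3, 130 before it in Gclm and 88 before it in Txnrd1. In Me1 the core was centred 2 bases before that start, and in Srxn1 32 after it. Only the Me1 core had the form TGACTCAGC, which contains the AP-1 site TGACTCA and was found in 0.454% of all promoters. The Me1 core was in the entry at the gene start, and another Me1 entry did not hold it. For Txnrd1 the core was in an entry inside the gene (82858956 to 82859255). The Txnrd1 entry at the gene start (82833701 to 82834000) did not hold it, nor did another inside the gene (82860091 to 82860390). The windows of Slc7a11, Akr1b8 and Nqo1 did not hold these letters, and the table has no entry for Gclc and Hmox1. A match is a description of letters, and binding was not measured.

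The values of the libraries set limits on the comparison. The files carry no read totals, and depth estimated from the smallest steps among low values was 17500000 to 20900000 reads a library. Spike-in transcripts made up 7.74% to 31.1% of RPKM. Scaled by the spike-in, the median tested gene in KO stood at 0.39, -0.23 and 1.14 on the log2 scale against WT at 0, 3 and 6 h, and the KO library at 6 h stood apart, since its median gene had 13.97% of the 0 h amount left against 10.99% at 3 h. Differences between genotypes are given below as log2 KO minus WT relative to the median tested gene of the same time, with the spike-in scaled value beside them where it alters the count. Mettl3 was at 7.79, 2.88 and 2.65 RPKM in WT and 6.84, 5.15 and 4.30 RPKM in KO at 0, 3 and 6 h, a value over the whole gene that does not check the deletion of exons. Dendritic cell markers were present in every library (summed RPKM of 8 genes 5607 to 8058). Cd74 alone was at 2680 to 6179 RPKM, while Itgax, Flt3 and Zbtb46 were at 9.80 to 30.6 RPKM. Macrophage markers ranged from Mrc1 (0.325 to 0.969 RPKM) to Cd14 (285 to 609 RPKM), so the sum does not measure how pure the cells were.

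Most of the set was less abundant in KO. A gene was counted as lower where KO was at least 1.5-fold below WT at all 3 times relative to the median gene, and 7 of the 10 met this (Nqo1, Akr1b8, Gsta3, Gclm, Me1, Slc7a11 and Txnrd1), against 0.862% of the tested genes. None was counted as higher, against 1.76%. At 0 h alone all 10 were past 1.5-fold lower (2.84% of tested genes). The median over the 10 genes was -1.10, -1.11 and -0.81 at 0, 3 and 6 h, and the median of the means over times was -0.95, beside -0.0045 for all tested genes. Without the 6 h libraries Gclc and Srxn1 were added, making 9 of 10, against 1.6% of tested genes. With spike-in scaling in place of the median gene 0 of 10 were counted, against 0.114%, since 0 were past 1.5-fold lower at 6 h. At 6 h 2 of the 10 were below WT on that scale. All 10 were below it at 0 and at 3 h, of which 6 and 9 were past 1.5-fold. On that scale 0 of 10 were counted as higher, against 2.6%. The spike-in scaled medians were -0.70, -1.34 and 0.33. In bulk RNA, fewer expressing cells and less RNA per cell cannot be told apart.

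**Figure D1:**
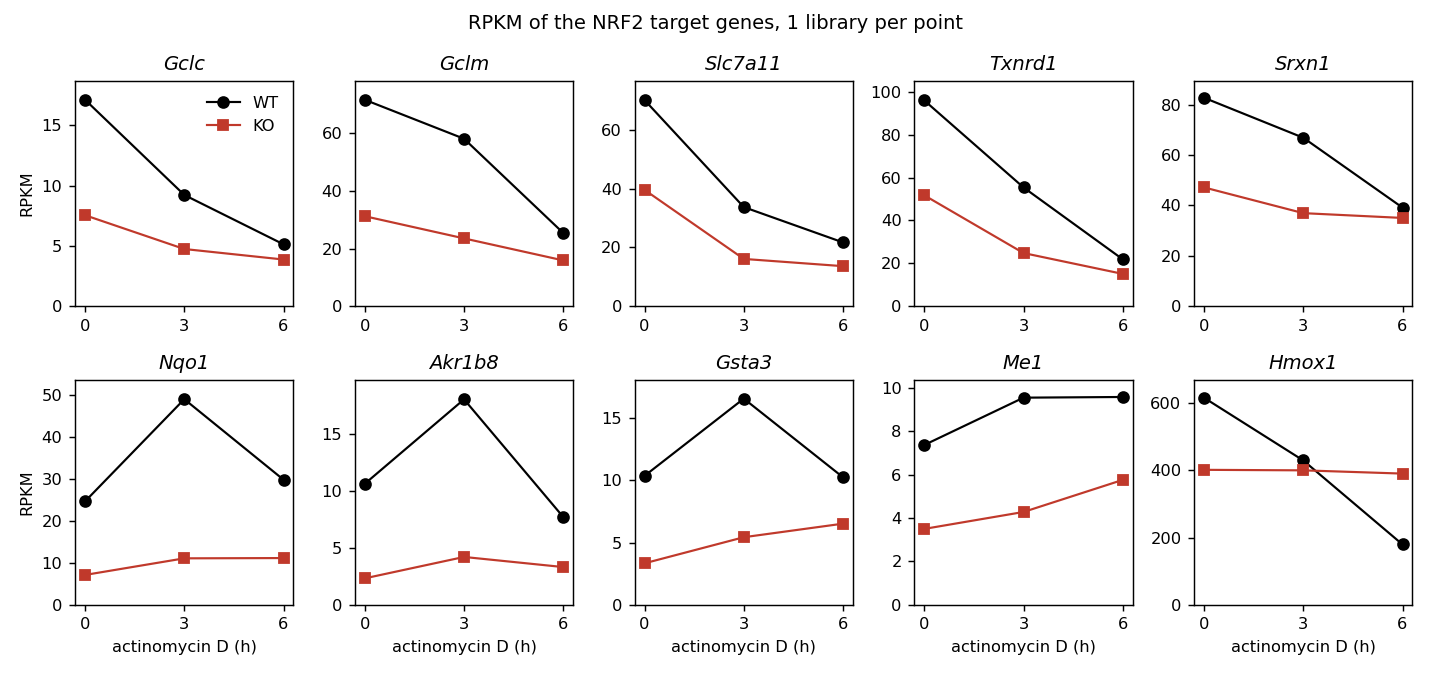
RPKM (vertical axes, each from 0 with its own range) of the 10 genes against hours of actinomycin D, with 1 library per point; black circles are WT and red squares KO. KO points lie under WT points throughout, except for Hmox1 at 6 h (390.3 RPKM in KO, 179.4 RPKM in WT).

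The detoxification genes had the largest differences of the set. Nqo1 (chromosome 8, 107388225 to 107403205), a quinone reductase that bypasses the reactive semiquinone, was at 24.7, 49.0 and 29.8 RPKM in WT and 7.12, 11.1 and 11.1 RPKM in KO. Every KO value lay below every WT value, and this separation was seen in 4 of the 10 genes (Nqo1, Akr1b8, Gsta3 and Me1) and in 2.02% of tested genes. The log2 difference of Nqo1 was -1.76, -2.10 and -1.56 (mean -1.81 ± 0.27, SD over 3 times of 1 culture), which corresponds to 3.39-, 4.28- and 2.96-fold less in KO and to rank 31 from the lowest of all tested genes.

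Akr1b8 (chromosome 6, 34354146 to 34368461), an aldo-keto reductase of carbonyl compounds, was at 10.6, 18.0 and 7.70 RPKM in WT and 2.32, 4.20 and 3.31 RPKM in KO. Its log2 difference was -2.13, -2.04 and -1.35 (mean -1.84 ± 0.43), rank 27 from the lowest. Gsta3 (chromosome 1, 21240565 to 21265575), an alpha-class glutathione S-transferase, was at 10.4, 16.6 and 10.2 RPKM in WT and 3.33, 5.43 and 6.52 RPKM in KO. The groups of Gsta3 did not overlap either, and its log2 difference was -1.59, -1.55 and -0.80 (mean -1.31 ± 0.45). The counting error of a log2 difference was 0.15 to 0.20 for Akr1b8 and 0.18 to 0.24 for Gsta3, which had the fewest reads of the set (about 48.2 in KO at 0 h).

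Both genes have near relatives with which reads may be shared. Akr1b3 was at 19.6, 18.7 and 15.7 RPKM in WT and 7.33, 21.5 and 14.01 RPKM in KO, so that it too was low in KO at 0 h but not at 3 h. Akr1b10 was at 16.3 to 19.2 RPKM in all 6 libraries, with a mean log2 difference of -0.01. Gsta1 (1.25 to 4.89 RPKM) and Gsta2 (0.298 to 2.43 RPKM) were low in every library. The sources used here do not say how the authors' counting split reads among such genes, and the levels of Akr1b8 and Gsta3 are less certain than those of the other genes.

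Me1 (chromosome 9, 86581363 to 86695914), the cytosolic malic enzyme that makes NADPH, was at 7.38, 9.56 and 9.59 RPKM in WT and 3.503, 4.28 and 5.77 RPKM in KO. Its difference was among the steadiest over time, at -1.04, -1.10 and -0.88 (mean -1.004 ± 0.12).

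The genes of glutathione supply were lower in KO by 0.81 to 1.26 log2 units at 0 and 3 h. Gclm (chromosome 3, 122245487 to 122267215), the modifier subunit of glutamate-cysteine ligase, the rate-limiting enzyme of glutathione synthesis, was at 71.6, 58.1 and 25.4 RPKM in WT and 31.2, 23.5 and 15.9 RPKM in KO. The KO value at 0 h lay between the WT values at 3 and 6 h, so the ranges overlapped over times, while at each time KO was lower. The log2 difference was -1.18, -1.26 and -0.83 (mean -1.09 ± 0.23).

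Gclc (chromosome 9, 77754535 to 77794489), the catalytic subunit of the same ligase, was at 17.1, 9.22 and 5.13 RPKM in WT and 7.54, 4.74 and 3.87 RPKM in KO. Its log2 difference was -1.15, -0.91 and -0.55 (mean -0.87 ± 0.30), and the 6 h value, 1.46-fold with a counting error of 0.12 on the log2 scale, fell just short of 1.5-fold. The 2 subunits thus differed in the count but by less than their spread over times.

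Slc7a11 (chromosome 3, 50364936 to 50499087), the cystine carrier of system xc-, was at 70.3, 33.8 and 21.7 RPKM in WT and 39.6, 16.1 and 13.6 RPKM in KO. Its log2 difference was -0.81, -1.02 and -0.82 (mean -0.88 ± 0.12). Like Gclm and Gclc it was less abundant in KO at every time, although its WT level at 6 h lay under its KO level at 0 h.

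Txnrd1 (chromosome 10, 82833951 to 82897724), the cytosolic thioredoxin reductase, was at 96.0, 55.4 and 21.8 RPKM in WT and 51.7, 24.8 and 15.0 RPKM in KO. The log2 difference was -0.87, -1.12 and -0.69 (mean -0.89 ± 0.22). With no filter on low values Txnrd1 was no longer counted. Srxn1 (chromosome 2, 152105524 to 152111376), sulfiredoxin, which restores overoxidized peroxiredoxins, was at 82.7, 66.9 and 39.1 RPKM in WT and 47.1, 36.9 and 35.0 RPKM in KO. Its log2 difference was -0.79, -0.82 and -0.31 (mean -0.64 ± 0.28), so it was past 1.5-fold at 0 and 3 h and not at 6 h.

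Hmox1 (chromosome 8, 75093618 to 75100593), haem oxygenase 1, which breaks haem down to biliverdin, iron and carbon monoxide, was the most abundant gene of the set and did not keep its direction. It was at 615.9, 429.3 and 179.4 RPKM in WT and 401.5, 399.9 and 390.3 RPKM in KO. In RPKM the WT level was lower at each later time, while the KO level differed little between times. The KO amount per spike-in did fall, to 18.96% of its 0 h value at 3 h and 25.56% at 6 h. In WT 20.13% and 5.13% were left. The log2 difference went from -0.60 at 0 h through -0.06 at 3 h to 0.97 at 6 h (mean 0.10 ± 0.80), and the counting error was at most 0.02. Hmox1 was the one gene of the 10 that was not below the median gene at all 3 times, a position held by 9 of 10 and by 26.3% of tested genes.

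**Figure D2:**
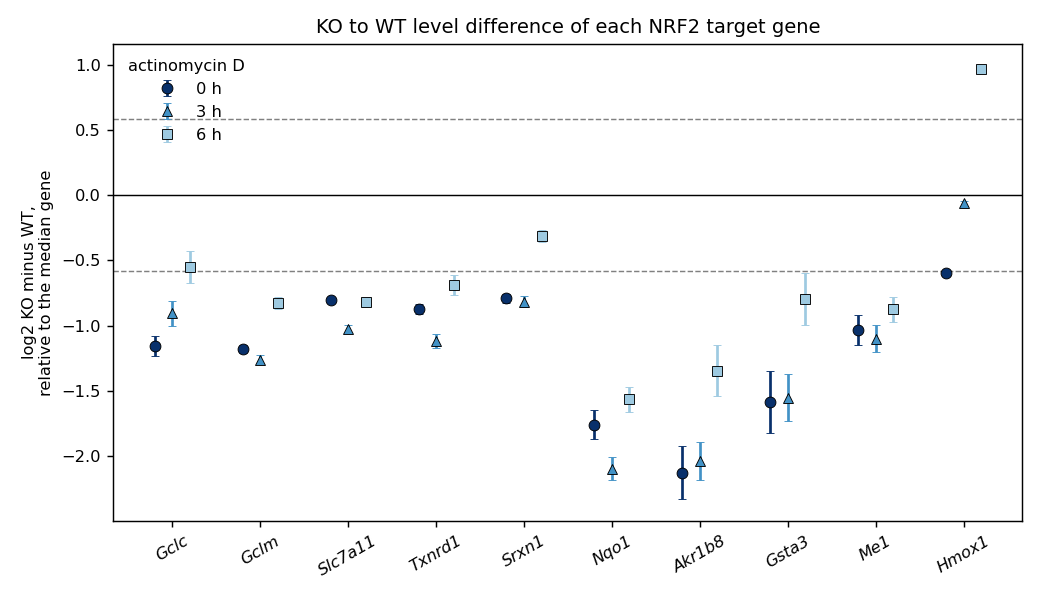
Log2 KO minus WT relative to the median tested gene (vertical axis) for each gene at 0 h (circles), 3 h (triangles) and 6 h (squares); bars are ± the approximate counting error and dashed lines mark 1.5-fold. Values of 7 genes lie under the lower line at every time, and Hmox1 moves from -0.60 to 0.97.

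The study's own list of genes lower in KO dendritic cells holds 5 of the 10 genes (Akr1b8, Gsta3, Me1, Nqo1 and Txnrd1). That list was picked for this direction in cells of the same mouse line, so their counts here are not independent evidence of it.

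Decay under actinomycin D separated the set into longer-lived and shorter-lived mRNAs in both genotypes. Half-lives were computed from the spike-in scaled loss to 3 h and to 6 h, and the median tested gene had 1.37 h (WT) and 1.30 h (KO). The median of the 10 genes was 1.504 h for WT (range 1.21 to 3.13 h) and 1.65 h for KO (range 1.11 to 2.73 h), and 6 genes in WT and 8 in KO were above the median gene.

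The 3 detoxification genes and Me1 were the longest-lived in both cultures. The Nqo1 half-life was 3.13 h (WT) and 2.49 h (KO), and 3.05% of tested genes in WT had a longer one. Gsta3 had 2.52 and 2.73 h in the same order, Me1 2.41 and 2.20 h, and Akr1b8 2.38 and 2.63 h. These 4 are also the genes whose RPKM at 3 h exceeded that at 0 h, in WT and in KO alike, which held for 18.6% of tested genes in WT and 16.9% in KO. Their amounts per spike-in were nevertheless below those at 0 h: Nqo1 kept 57.3% in WT and 29.5% in KO at 3 h, and 21.3% and 41.0% at 6 h. Akr1b8 kept 48.8% and 33.8% at 3 h, and 12.8% and 37.1% at 6 h. KO thus kept less than WT at 3 h and more at 6 h. The median tested gene did the same, with 16.97% (WT) and 10.99% (KO) left at 3 h, and 8.23% and 13.97% at 6 h. The order of the genotypes followed the time used: without the 3 h libraries the half-lives of Nqo1, Gsta3, Me1 and Akr1b8 in KO were 4.66, 6.12, 4.90 and 4.19 h, each above WT (2.02 to 2.82 h), and without the 6 h libraries they were 1.70, 1.76, 1.42 and 1.92 h, each below WT (2.11 to 3.73 h).

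The other 6 genes had shorter half-lives than Nqo1, Gsta3, Me1 and Akr1b8 in both cultures. Some lay above the median gene and some below it. In the same order Srxn1 had 1.54 and 1.53 h, Gclm 1.47 and 1.41 h, Gclc 1.25 and 1.34 h, Txnrd1 1.22 and 1.13 h, and Slc7a11 1.21 and 1.11 h. Hmox1 had 1.35 and 1.77 h, the largest ratio between genotypes in the set (1.42 relative to the median gene, 1.32 on the spike-in scale). With 1 culture per genotype, neighbours in this order cannot be said to differ.

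**Figure D3:**
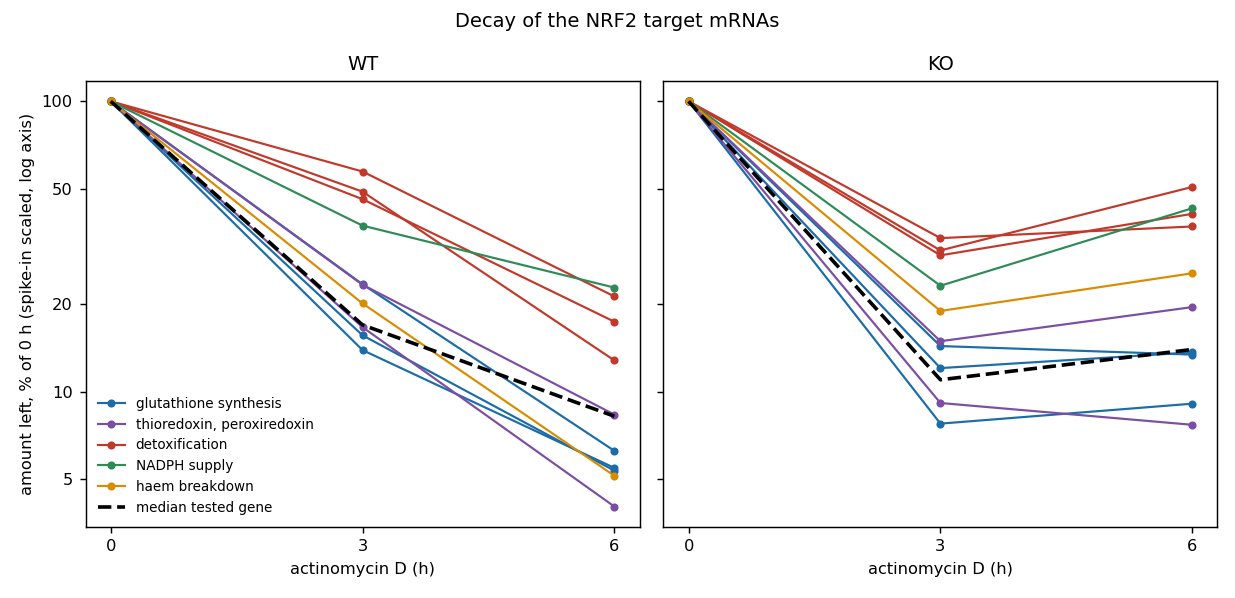
Amount left as a percent of 0 h (log vertical axis, spike-in scaled) against hours of actinomycin D in WT (left) and KO (right); each coloured line is a gene, coloured by role, and the dashed line is the median tested gene. Detoxification, Me1 and Srxn1 lines lie above the median gene in both panels, and the Hmox1 line does so in KO. The KO median lies higher at 6 h (13.97%) than at 3 h (10.99%).

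Decay did not meet the criterion for a difference between genotypes in any of the 10 genes. A difference was counted where half-lives differed at least 1.5-fold and both rates moved the same way, and 0 of 10 were faster in KO (0.786% of tested genes relative to the median gene) and 0 were slower (0.824%). The spike-in scaled counts were 0 and 0 (0.805% and 0.511%). So few genes of any kind passed that 0 of 10 on either scale cannot be read as a lack of difference. Relative to the median gene 4 of the 10 had both rates lower in KO and 1 had both higher. On the spike-in scale the median rate of tested genes in KO less that in WT changed sign. It was 0.209 with the 3 h libraries and -0.127 with the 6 h libraries (log2 loss per h). None of the 10 genes had both rates moving the same way there, which the criterion requires. The smallest and largest half-life ratios of KO to WT relative to the median gene were 0.89 for Nqo1 and 1.42 for Hmox1. Hmox1 was counted as slower in KO under 3 of the alternatives, namely without the 3 h libraries (half-life 3.05 h), with no filter on low values and with no spike-in scaling. With 1 culture per genotype these ratios have no replicate error, and differences smaller than the criterion cannot be judged.

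Among the regulators of NRF2, none of the 12 tested (of 13 listed) was counted in either direction, and their median was -0.07. Few genes of any kind passed this criterion (0.862% with KO below WT, 1.76% with KO above it). A list of 12 with no such gene therefore does not show that the regulators were unchanged. Nfe2l2 was at 92.3, 11.2 and 8.07 RPKM in WT and 88.1, 10.1 and 6.73 RPKM in KO, a mean log2 difference of -0.19 ± 0.19. Its mRNA was short-lived in both cultures, with half-lives of 0.77 h (WT) and 0.72 h (KO). Keap1 stood at 0.46 ± 0.26, the ligase scaffold Cul3 at -0.25 ± 0.15 and its RING partner Rbx1 at 0.12 ± 0.06. The repressor Bach1 was at -0.17 ± 0.15. Of the small MAF partners, Mafg was at -0.01 ± 0.02, Mafk at -0.0017 ± 0.41 and Maff at -0.49 ± 0.15. Sqstm1 (p62), which binds KEAP1 and is itself an NRF2 target, was at 688, 240 and 111 RPKM in WT and 464, 162 and 101 RPKM in KO (-0.45 ± 0.14). The related factor Nfe2l1 was at 0.22 ± 0.08, and the routes to NRF2 turnover outside KEAP1, Gsk3b and Btrc, were at -0.13 ± 0.11 and -0.01 ± 0.12. These are mRNA levels, and NRF2 protein was not measured here. On spike-in scaled amounts the median of the regulators turned positive, at 0.36.

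Other NRF2 targets lay below the median gene at all times in most cases. Of 28 tested (of 30 listed), 3 were counted as lower and 0 as higher, against 0.862% and 1.76% of all tested genes. Below the median gene at all 3 times were 19, against 26.3% of all tested genes, and the list median was -0.38. The 3 counted as lower were Prdx6, a peroxiredoxin that reduces phospholipid peroxides (-0.98 ± 0.35), Abcc1, an exporter of glutathione conjugates (-0.82 ± 0.11), and Gsta1 (-0.99 ± 0.40, at 1.25 to 4.89 RPKM). The other low value by the naming rule was Gsta2 (-0.98 ± 1.29), at 0.298 to 2.43 RPKM and near the pseudocount of 0.1 RPKM. Prdx1 (-0.97 ± 0.35), an abundant peroxiredoxin at 1138 to 5484 RPKM, and Ephx1, microsomal epoxide hydrolase (-0.93 ± 0.41), had similar means and missed the count at 6 h; both are named here after their values were seen. The highest were the carbonyl reductases Cbr3 (0.39 ± 0.74) and Cbr1 (0.17 ± 0.41). Without the 6 h libraries 10 were lower, against 1.6% of all tested genes. With spike-in scaling 0 were lower, against 0.114%, and the median was 0.05.

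Antioxidant enzymes outside this target list included genes counted in each direction. Of 17 tested (of 18 listed), 1 was lower and 2 were higher, against 0.862% and 1.76% of all tested genes, with a median of 0.08. Scaling by the spike-in gave 0 lower and 1 higher, against 0.114% and 2.6%, with a median of 0.51. The mitochondrial peroxiredoxin Prdx3 was at 49.98, 53.4 and 43.8 RPKM in WT and 31.0, 27.8 and 28.8 RPKM in KO (-0.77 ± 0.11), and catalase (Cat) was at -0.44 ± 0.05. Glutaredoxin (Glrx) was at 199.9, 316 and 229 RPKM in WT and 300.3, 509.5 and 557 RPKM in KO (0.82 ± 0.27), and the secreted glutathione peroxidase Gpx3, at 0.755 to 3.53 RPKM, had 1.31 ± 0.60.

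**Figure D4:**
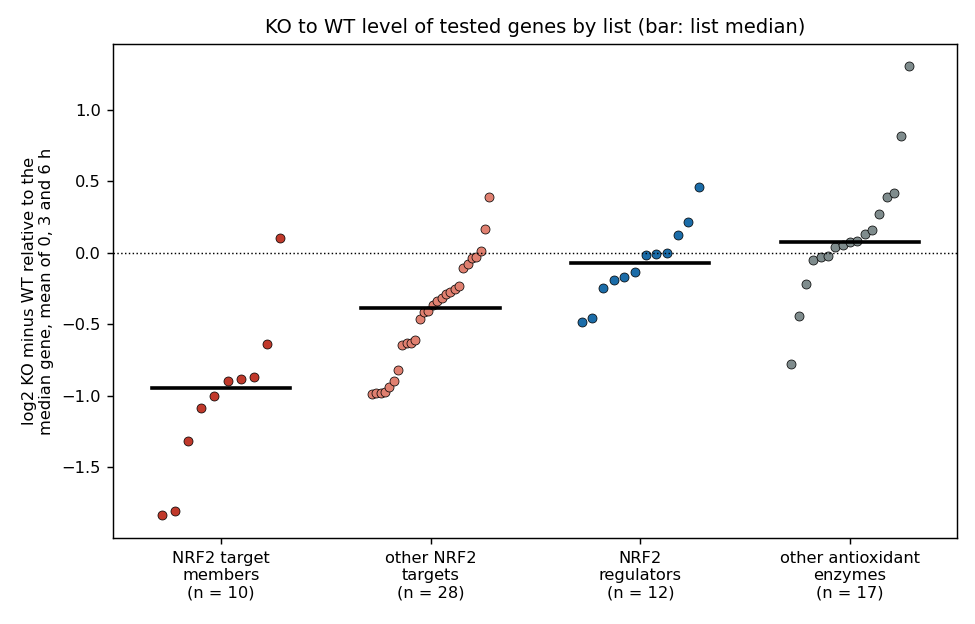
Mean log2 KO minus WT over 0, 3 and 6 h, relative to the median gene (vertical axis), with 1 point per tested gene in 4 lists; bars are list medians. The medians are -0.95 for the 10 genes, -0.38 for other NRF2 targets, -0.07 for NRF2 regulators and 0.08 for other antioxidant enzymes.

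Over the 6 libraries, which come from only 2 cultures and share their depth and spike-in within a library, the profiles of the 10 genes were alike to different degrees. Pearson's r, as a description on log2 values relative to the median gene, was 0.99 between Srxn1 and Akr1b8, 0.98 between Nqo1 and Gsta3 and 0.98 between Nqo1 and Akr1b8. It was 0.96 between Gclm and Gclc and 0.91 between Txnrd1 and Slc7a11, 0.897 between Gclm and Akr1b8, 0.893 between Gclm and Srxn1, and 0.11 between Txnrd1 and Me1. Hmox1 had r of -0.17 to 0.49 with the other 9 genes. The genes outside the set closest to its median profile, among 6831 genes of at least 5 RPKM, were Ipo13 (r = 0.99), Zfyve19 (0.99), Snrpb2 (0.99), Nrp2 (0.98) and the NRF2 target Abcc1 (0.98), and the mean log2 differences of the first 4 were -0.42, -0.21, -0.27 and -0.35.

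Markers of other cell types also moved with genotype, and their part in the results was not tested. The summed RPKM of 11 neutrophil markers was 7484 and 11329 in WT and 13369 and 13510 in KO at 0 and 3 h, and 7680 and 8780 at 6 h. Of the 9 neutrophil markers tested, 3 were higher (Ltf, Ngp and Cxcr2) and 1 lower (Mmp8), against 1.76% and 0.862% of tested genes, with a median of 1.07. On spike-in scaled amounts 5 were higher and 0 lower, against 2.6% and 0.114%, and the granule enzymes Elane and Mpo reached at most 0.210 and 0.577 RPKM. Of 9 macrophage markers tested 2 were higher (Fcgr1 at 1.98 ± 0.41 and C1qa at 0.91 ± 0.40), with a median of 0.13 and 1 higher on spike-in scaled amounts, and the summed RPKM of all 10 in the table was 1142, 1888 and 1231 in WT and 994, 1577 and 1604 in KO. None of the 8 dendritic cell markers was counted in either direction (median -0.17).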

How the data were processed

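Poly(A) RNA of maDC was sequenced in 6 libraries, 1 for each genotype and time, and groups were taken from the sample labels. The submitters' processing notes name bcl2fastq, TopHat2 2.0.14, Cuffnorm and mm10. The sources used here do not give the gene annotation or the strand setting, and the library kit differs between the labels and the methods of the study. The authors deposited a signal for genes and for 92 ERCC transcripts, namely RPKM plus 1 carried to the scale of the WT library at 0 h by a factor and an exponent per column. The factor and the exponent were inferred from the values, and RPKM was recovered by inverting this line. The exponent was the one that gave most values 6 significant digits, as RPKM tables are written. The recovered values had them for at least 99.95% of genes, a share that the choice itself maximised and that is no separate check. The authors' deposited lifetime columns hold their own results and were not used.

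Of the rows 27 with a date in place of a symbol were left out. A pseudocount of 0.1 RPKM was added, genes averaging 1 RPKM or more were tested, and each library was scaled by the median log2 ratio over 75 ERCC transcripts (those never at 0). ERCC RNA was added in proportion to total RNA, so scaled amounts are per total RNA. Fold changes are on the log2(RPKM + 0.1) scale, which understates those of low genes. The decay rate was the log2 loss per h, and the half-life 2 divided by the sum of the rates to 3 and 6 h; rates under 0.02 per h were set to 0.02 for calls. Approximate reads came from the value of 1 read in low genes (steps of 30 to 70 RPKM times bases, a window chosen after seeing the data) and the shortest RefSeq transcript; they cover counting error only. Coordinates are those of RefSeq on GRCm38.p6, the assembly behind mm10. The genes named are the 10 members, the NRF2 regulators, the 2 highest and 2 lowest of each other list, genes counted where there were 5 or fewer, and the 5 closest profiles. The members and lists were chosen with earlier results of these data known. The calculation was tested on simulated data, with Python 3.11.15, pandas 2.3.3, numpy 2.4.6 and matplotlib 3.10.9.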

Additional observations from a re-analysis of the deposited data

Results flagged for a closer look

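Hmox1 was singled out because its KO to WT difference changed sign between times, which was not tested with 1 library per genotype and time. Relative to the median gene its log2 KO minus WT values were -0.5999, -0.06329 and 0.9684 after 0, 3 and 6 h of actinomycin D. The other 9 genes were negative at all 3 times. On the spike-in scale the Hmox1 values were -0.21, -0.29 and 2.11. The carbonyl reductases Cbr3 and Cbr1, NRF2 targets on the other list, are set beside it here after their values were seen. They stood at 1.24 and 0.64 at 6 h, and at -0.13 to 0.06 and -0.09 to -0.05 at 0 and 3 h. Other genes were also highest at 6 h, among them Hmox2 (0.45, 0.99 and 1.44) and Glrx (0.60, 0.73 and 1.13). Some went the other way, among them Gsta1 (-0.74, -0.78 and -1.46). From 3 to 6 h the RPKM of Hmox1 went from 429.3 to 179.4 in WT and from 399.9 to 390.3 in KO, that of Cbr3 from 8.21 to 2.84 and from 8.35 to 7.60, and that of Cbr1 from 8.25 to 3.65 and from 7.72 to 6.40.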

How the results depend on the processing

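No paired analysis was possible because each genotype and time has 1 library. For the values that answer a comparison, 156 under an alternative stayed close to the reported one, 30 moved and 2 changed sign; for single genes 204 stayed close and 68 moved, and the mean level difference of Hmox1, which was not counted in either direction, went from 0.10 to -0.33 without the 6 h libraries. Without the 6 h libraries 9 members were lower, 10 other targets were lower, 169 of all genes were lower and 287 higher, and the median half-life of members in KO was 1.172 h. Without the 3 h libraries that half-life was 2.799 h, and 1 member, Hmox1, was slower in KO. On spike-in scaled amounts 0 members were lower (median -0.5137), as were 0 other targets (median 0.05013, changed in sign) and 0 other antioxidant enzymes (1 higher, median 0.5117); the median of the regulators was 0.3619, also changed in sign, and 12 of all genes were lower. With no spike-in scaling Nqo1, Me1, Akr1b8 and Gsta3 had rates below 0 in both genotypes, so no half-life exists for these 4 and no median is given, and Hmox1, 1 gene, was slower. A 2-fold threshold left 2 members lower (Nqo1 and Akr1b8), 0 other targets, 0 other antioxidant enzymes lower and 0 higher, and 24 of all genes lower and 66 higher. A pseudocount of 1 RPKM left 1 other target lower and 1 other antioxidant enzyme higher. The authors' calibrated values gave 58 genes lower and 1 other antioxidant enzyme higher. With no filter 6 members were lower, 1 member (Hmox1) was slower, and 155 genes were lower and 289 higher; at a mean of at least 5 RPKM 57 were lower, 101 higher and 1 other antioxidant enzyme was higher. The cause of these shifts was not tested, beyond the smaller or larger number of genes and libraries that each setting itself holds. Spike-in transcripts of at least 10 RPKM, and recovery with 1 factor and no exponent, both chosen after seeing the data, left 7 members lower each. Approximate reads limit Akr1b8 and Gsta3 most, with counting errors of up to 0.20 and 0.24 on the log2 scale.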

Other observations

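GGACT is a form of the consensus in which m6A is written on mRNA, and it was counted on the sense strand of the shortest RefSeq transcript of each gene as a description of letters; methylation was not measured in these libraries. Me1 held 6 matches, Gclm, Srxn1 and Slc7a11 4 each, Akr1b8 3, Nqo1 and Gclc 2 each, and Txnrd1 1, while Gsta3 and Hmox1 held none. The median of 9814 tested genes was 3. Per kilobase, Akr1b8 was highest at 2.21, Me1 had 1.82 and the median tested gene 1.06.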
